A study of Homo sapiens with 40 samples.

Results

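The genes described here are those of glycolysis and of the metabolism that low oxygen switches on, 36 genes in all, read in U87 glioblastoma cells that expressed different forms of IRE1. They were listed by name and by what their products do, with no measured value in the rule. The list was nonetheless chosen with earlier results of these data known. Of the 36 genes, 34 had at least 1 probe set named for them alone, a probe set being a group of short probes that together read 1 transcript, and these 34 were read by 77 of the 54715 probe sets of the array. All 34 passed the filter on dim genes, which kept 17191 of 19774 genes. SLC16A3, a lactate exporter, and CA9, a carbonic anhydrase, were not analysed here.

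Glycolysis splits glucose to pyruvate in the cytosol, and lactate dehydrogenase then turns pyruvate to lactate so that the pathway can go on without oxygen. When oxygen is low, EGLN enzymes no longer hydroxylate the subunits of hypoxia-inducible factor (HIF), which then persist and switch on glucose transporters, most glycolytic enzymes, the kinases that keep pyruvate from being oxidised in mitochondria, mitophagy receptors and collagen hydroxylases. Glioblastomas are known for high glucose use and for oxygen-poor regions. IRE1 is a kinase and endoribonuclease of the endoplasmic reticulum (ER) that senses unfolded proteins, and tunicamycin, which blocks N-linked glycosylation, is a common way to stress the ER.

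There were 7 lines of U87, an established human glioblastoma line, each stably expressing 1 construct. The EV line carried the vector without IRE1 and the WT line the normal form of IRE1. Others carried it with S769F, with Q780* (labelled Q780Stop), with P336L or with A414T, and the IRE1-DN line carried a dominant-negative form. Each line was grown under basal conditions and with tunicamycin at 0.5 µg/ml for 16 h. This gave 14 groups and 40 arrays, with 3 arrays a group and 2 in each IRE1-DN group (replicates 2 and 3). The lentiviral vector of the EV, WT and variant lines had a CMV promoter for IRE1, puromycin resistance and a green fluorescent protein. The methods do not name the vector of the IRE1-DN line, so that a difference from EV cells due to the vector cannot be told apart there. The cells kept their own IRE1, so that every line but EV held an added form on top of it. No group was kept at low oxygen, and the labels give no oxygen level. The labels call the arrays biological replicates without saying whether they were separate cultures, so that p-values measure the spread between these arrays. The labels give each variant line a clone number, whereas the methods describe polyclonal populations. With 1 such line for each form, the effect of a form and that of the cells selected cannot be told apart.

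The values are log2 signals, on which a difference of 1 is a 2-fold change. Arrays of the same group correlated at r = 0.976 to 0.993 over all probe sets. ERN1, which encodes IRE1, was read by 3 probe sets. On one of them S769F and A414T cells differed from EV cells under basal conditions, S769F cells being higher (6.25 against 5.18). On another IRE1-DN cells were lower than EV cells (5.04 against 6.09), and on the last no line differed. IRE1-DN cells had the lowest basal mean on all 3, although their labels name an overexpressed form of IRE1. ERN1 thus checks the labels only in part, and not that of IRE1-DN cells. VIM and CD44, mesenchymal genes that U87 cells are known to express, had log2 signals of 12.96 to 13.38 and 11.81 to 12.97, whereas GFAP and S100B, which mark astrocytes, reached the 40th percentile of an array (4.23 to 4.31) on 2 and 0 of 40 arrays. The other mesenchymal and glial markers listed, CHI3L1, NES, SOX2 and OLIG2, reached that level on 40, 37, 32 and 15 arrays. Markers of other cell types were mixed. PTPRC and CD14 of leukocytes, CDH5 of endothelium and CDH1 of epithelium reached it on none, whereas CD68 and AIF1 of leukocytes reached it on 40 and 38 arrays, PECAM1 and VWF of endothelium on 40 and 33, and EPCAM and KRT8 of epithelium and TUBB3 and SNAP25 of neurons on all 40. KDR of endothelium reached it on 20 arrays, KRT18 of epithelium on 6, and RBFOX3 and SYT1 of neurons on 32 and 40. Tunicamycin raised all 13 genes of an ER stress check list in all 7 lines, with a median log2 difference between 1.65 and 2.49. The ACTB 3' minus 5' signal, a sign of RNA quality and labelling, was 1.07 to 1.08 on the 2 basal IRE1-DN arrays and 1.76 to 2.03 on the 3 basal EV arrays.

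The first question was what ER stress did to these genes in each line. A gene was called higher or lower at a Benjamini-Hochberg adjusted p under 0.05 from limma over all 17191 genes, with no fold minimum. In EV cells tunicamycin raised 8 of 34 genes (23.5%, against 18.2% of all genes tested) and lowered 6 (17.6%, against 12.7%). In WT cells it raised 5 (14.7%, against 15.8%) and lowered 8 (23.5%, against 13.5%). In S769F cells 7 were higher (20.6%, against 16.9%) and 6 lower (17.6%, against 13.8%), and in Q780* cells 7 were higher (20.6%, against 19.9%) and 10 lower (29.4%, against 16%). In P336L cells 5 were higher (14.7%, against 12%) and 6 lower (17.6%, against 14%). A414T cells had 12 higher (35.3%, against 15.8%) and 6 lower (17.6%, against 17.3%), and IRE1-DN cells 9 higher (26.5%, against 9.1%) and 3 lower (8.8%, against 10.7%). The share of the 34 genes stood furthest above that of all genes for rises in A414T and IRE1-DN cells and for falls in Q780* and WT cells. The median log2 difference of the 34 genes was between -0.08 and 0.06 in the 7 lines, and that of all genes between -0.04 and 0.02.

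Of the 34 genes, 5 genes rose in all 7 lines, SLC2A1, HK2, NDRG1, KDM3A and P4HA2, and 1 fell in all 7, PGAM1. Another 8 genes were called in no line, ALDOA, ALDOC, GAPDH, GPI, PFKL, PGK1, PKM and EGLN3. SLC2A3 and PDK3 were called in opposite directions in different lines, and the other 18 in 1 direction in 1 to 6 lines. Such counts over the lines were not made for all genes tested.

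**Figure D1:**
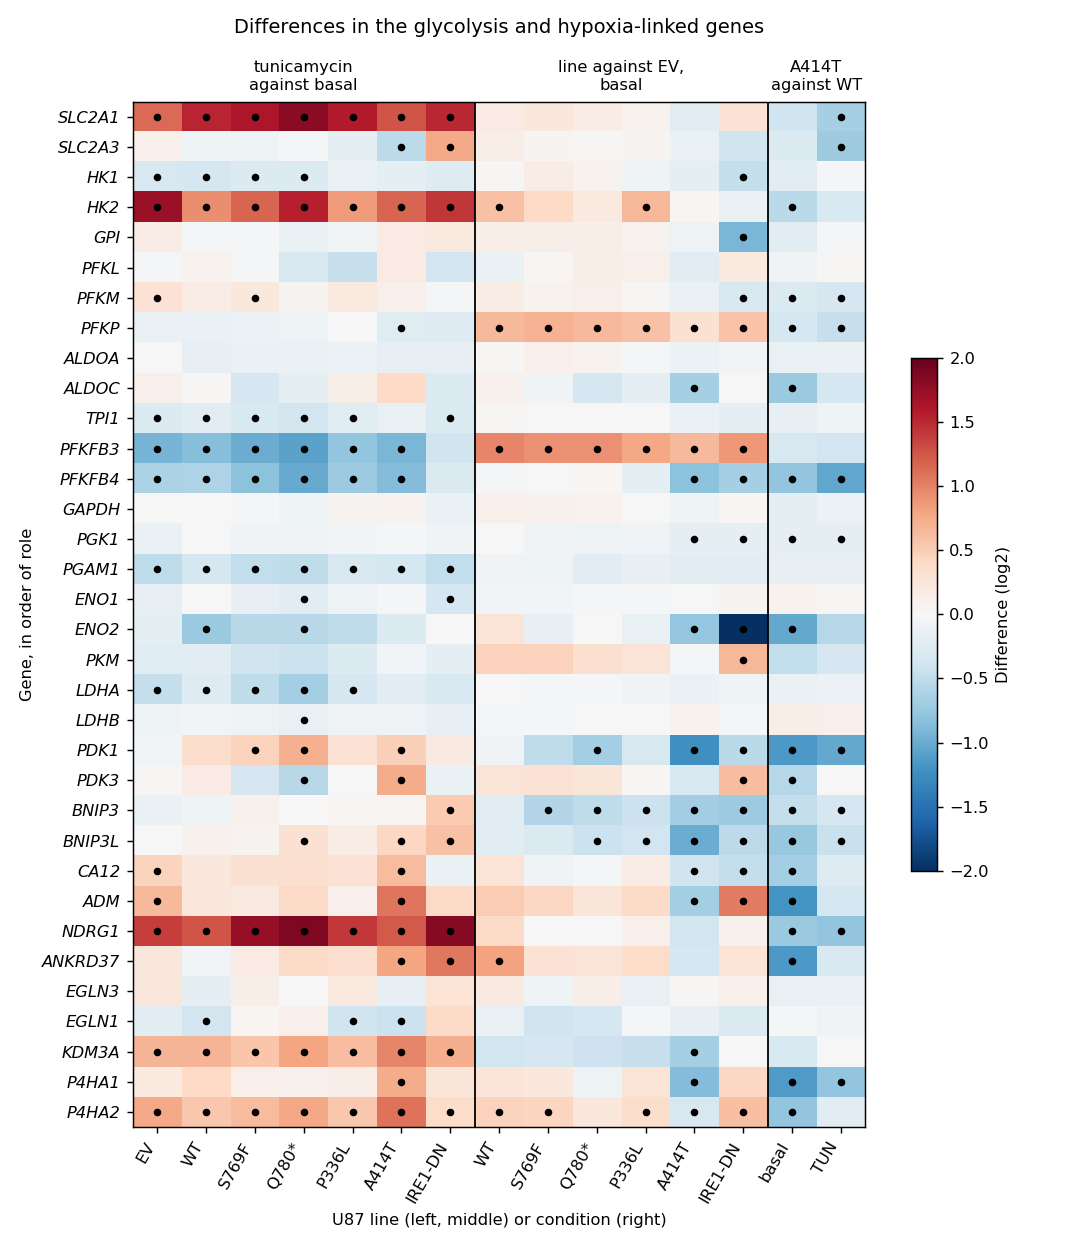
Log2 differences of the 34 genes (rows, in order of role) in 15 comparisons (columns): tunicamycin against basal in each of 7 lines, the basal arrays of 6 lines against those of EV cells, and A414T against WT cells. Red is higher, blue is lower, and a dot marks an adjusted p under 0.05 from limma; SLC2A1, HK2, NDRG1, KDM3A and P4HA2 are red with a dot in all 7 columns on the left.

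Transport of glucose and its trapping in the cell come first. SLC2A1 encodes GLUT1, the main glucose transporter of most tumour cells. Its basal log2 signal was 7.84, 7.68 and 7.59 on the EV arrays, 8.10, 7.83 and 7.68 in WT, 8.10, 8.07 and 7.59 for S769F cells, 7.87, 7.92 and 7.75 in Q780*, 8.04, 7.58 and 7.69 in P336L, 7.97, 7.17 and 7.29 in A414T and 7.99 and 8.01 in IRE1-DN cells. On tunicamycin it was 8.51, 9.10 and 8.90 in EV, 9.19, 9.44 and 9.56 in WT, 9.47, 9.52 and 9.63 for S769F cells, 9.69, 9.67 and 9.62 in Q780*, 9.01, 9.53 and 9.54 in P336L, 8.05, 9.20 and 8.95 in A414T and 9.36 and 9.64 in IRE1-DN cells. In each line every tunicamycin array was above every basal array, and replicate 1 of A414T cells on tunicamycin lay lowest, close to the highest basal arrays. The log2 difference ran from 1.13 (SE 0.22, adjusted p = 0.000127) in EV cells to 1.81 (SE 0.22, adjusted p = 6.52e-08) in Q780* cells. The other SLC2A1 probe set was called higher in WT, S769F and Q780* cells. It was 0.55 in EV, 0.28 in P336L, 0.33 in A414T and 0.82 in IRE1-DN cells, without a call. SLC2A3, which encodes GLUT3, a glucose transporter typical of neurons, was -0.52 (SE 0.17, adjusted p = 0.0155) in A414T and 0.76 (SE 0.20, adjusted p = 0.00688) in IRE1-DN cells, and was not called in the other 5 lines. The IRE1-DN call for SLC2A3 ended without replicate 3 of the basal or replicate 2 of the tunicamycin arrays. The A414T call ended in 4 of 14 alternatives, with a difference of -0.32 without replicate 3 of the tunicamycin arrays.

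HK2 is the hexokinase that traps glucose in the cell and is induced in many tumours. It was 1 of 2 genes with no overlap between the 20 basal and the 20 tunicamycin arrays, a count not made over all genes. Its basal log2 signal was 9.42, 9.35 and 9.53 in EV, 9.85, 9.90 and 10.29 in WT, 9.46, 9.95 and 10.09 for S769F cells, 9.19, 9.81 and 9.91 in Q780*, 10.00, 10.09 and 10.18 in P336L, 9.31, 9.39 and 9.71 in A414T and 9.20 and 9.39 in IRE1-DN cells. With tunicamycin it was 10.96, 11.17 and 11.35 in EV, 10.82, 11.03 and 10.96 in WT, 11.06, 10.93 and 10.98 for S769F cells, 11.16, 11.02 and 11.37 in Q780*, 10.91, 10.99 and 10.92 in P336L, 10.51, 10.80 and 10.59 in A414T and 10.89 and 10.55 in IRE1-DN cells. EV cells started among the lowest and ended among the highest. The log2 difference was largest in EV cells, 1.73 (SE 0.16, adjusted p = 1.06e-09), and smallest in P336L cells, 0.85 (SE 0.16, adjusted p = 0.000142). HK1, the hexokinase that most tissues express all the time, was called lower in EV, WT, S769F and Q780* cells, by log2 differences of -0.33, -0.33, -0.28 and -0.27, and in no line was it called higher.

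Another and dimmer HK2 probe set, with a mean log2 signal of 5.66, did not show this rise. It was -1.31 (SE 0.27, adjusted p = 0.000347) on tunicamycin in A414T cells, opposite to 1.17 on the brighter one, and was between -0.63 and 0.14 without a call in the other 6 lines. Averaging both probe sets ended the HK2 call in WT, P336L and A414T cells. TPI1, which interconverts the triose phosphates, had a disagreement of the same kind. Its brightest probe set was lower in 6 lines, from -0.37 in Q780* to -0.23 in WT cells, and was -0.15 (SE 0.07, adjusted p = 0.0888) in A414T cells. The next brightest was called lower in 5 lines, whereas the dimmest was higher in EV, 1.05 (SE 0.36, adjusted p = 0.0319), S769F, 1.01 (SE 0.36, adjusted p = 0.038), and Q780* cells, 1.02 (SE 0.36, adjusted p = 0.0309). Over the 176 calls between 2 groups, 94 were of genes with another tested probe set, which was called in the same direction in 45 and in the opposite one in 4. The position of these probe sets in their transcripts was not analysed here.

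**Figure D2:**
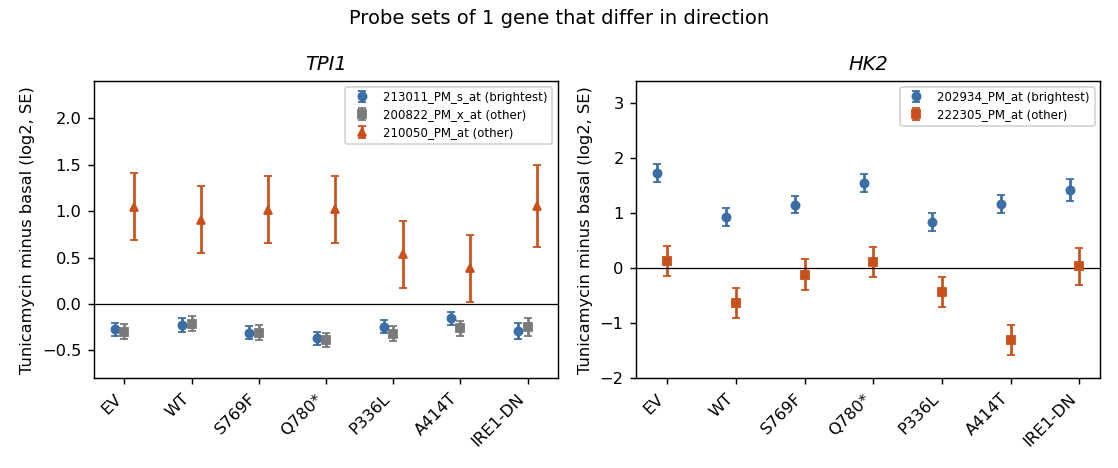
Difference between tunicamycin and basal arrays (log2, with its SE) in each of 7 lines for the 3 probe sets of TPI1 (left) and the 2 of HK2 (right). The dimmest TPI1 probe set lies above 0 where the others lie below, and the dimmer HK2 probe set lies below the brighter one in all 7 lines.

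Few other enzymes of the first steps were called. PFKM, a phosphofructokinase of muscle and other tissues, rose by 0.30 in EV and 0.21 in S769F cells on the log2 scale, and PFKP, the platelet form, was -0.24 in A414T cells, a call that ended in 6 of 14 alternatives. The S769F call of PFKM held in 6 of 14. PFKFB3 and PFKFB4 make and break the bisphosphate that activates phosphofructokinase, and both fell in most lines. PFKFB3, which mostly makes it, had log2 signals of 9.61, 9.70 and 9.49 in basal Q780* cells, which became 8.71, 8.31 and 8.57 on tunicamycin. EV cells were lower in both conditions, 8.67, 8.66 and 8.71 under basal conditions and 8.14, 7.50 and 7.60 on tunicamycin. It fell in 6 lines, from -0.78 in P336L to -1.07 (SE 0.14, adjusted p = 3.05e-07) in Q780* cells. In IRE1-DN cells the arrays overlapped, 9.72 and 9.39 under basal conditions and 9.43 and 8.90 on tunicamycin, and the difference was -0.39 (SE 0.17, adjusted p = 0.123). PFKFB4 also fell in 6 lines, from -0.61 in WT to -1.01 (SE 0.17, adjusted p = 2.18e-05) in Q780* cells, where it was 8.53, 8.98 and 8.80 under basal conditions and 7.84, 7.89 and 7.56 on tunicamycin. Its difference in IRE1-DN cells was -0.29 (SE 0.21, adjusted p = 0.413). In the 6 lines the other PFKFB4 probe set was not called, and lay between -0.55 in WT and 0.09 in P336L cells. The mean of both probe sets ended the P336L call.

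No enzyme of the later steps was called higher. PGAM1, the phosphoglycerate mutase, was the other gene with no overlap between the 20 basal (12.29 to 12.60) and the 20 tunicamycin arrays (11.78 to 12.28). It fell in every line, between -0.32 in P336L and -0.51 (SE 0.09, adjusted p = 2.91e-05) in EV cells. LDHA, which turns pyruvate to lactate, was lower in EV, WT, S769F, Q780* and P336L cells, with log2 differences of -0.47, -0.26, -0.51, -0.69 and -0.34, and was -0.23 (SE 0.10, adjusted p = 0.0671) in A414T and -0.31 (SE 0.12, adjusted p = 0.0687) in IRE1-DN cells. The WT call of LDHA ended in 8 of 14 alternatives, with the arrays centred on the median among them. ENO1, the common enolase, fell in Q780* cells (-0.21, with overlapping arrays) and IRE1-DN cells (-0.33), ENO2, the neuronal enolase, in WT and Q780* cells (-0.73 and -0.56), and LDHB, the other lactate dehydrogenase subunit, in Q780* cells (-0.15). In Q780* cells the calls of ENO1, ENO2 and LDHB held in 7, 7 and 5 of 14 alternatives, and in IRE1-DN cells that of ENO1 in 6 of 12. GAPDH differed by -0.14 to 0.07 over the 7 lines and was not called in any. For 8 genes, ALDOA, TPI1, GAPDH, PGK1, PGAM1, ENO1, LDHA and LDHB, the mean log2 signal of the brightest probe set was 12.12 to 13.05, close to the maximum of the arrays, 13.36 to 13.49, where large rises would be hard to see.

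**Figure D3:**
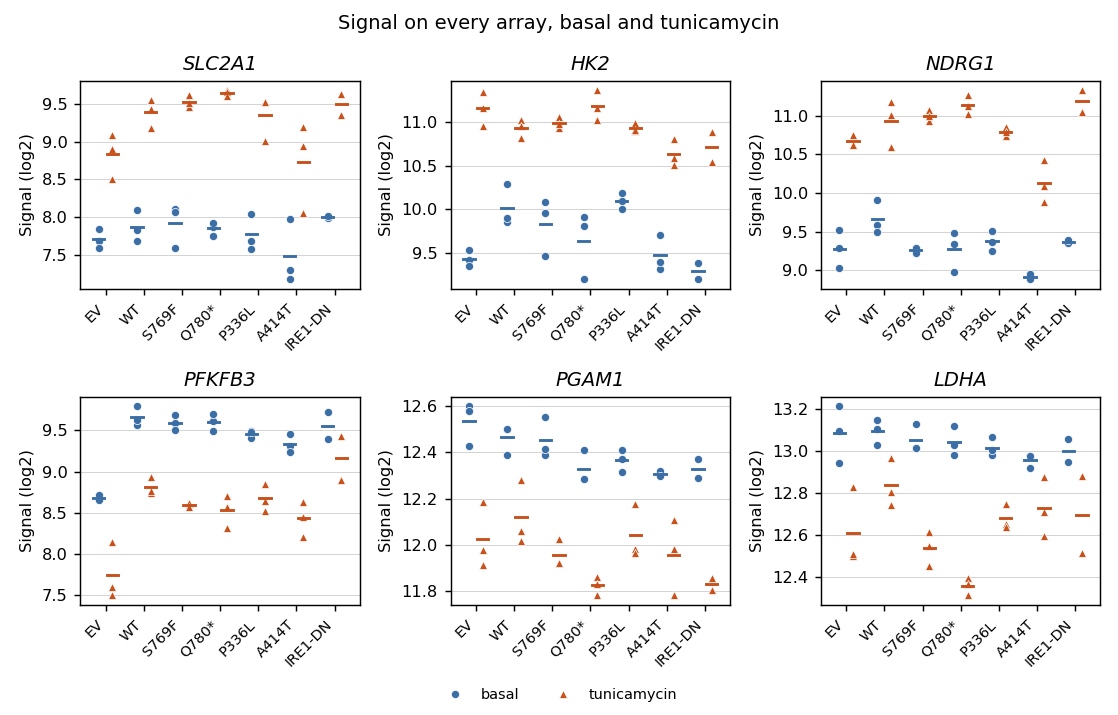
Log2 signal of SLC2A1, HK2, NDRG1, PFKFB3, PGAM1 and LDHA on every array of the 7 lines, basal (blue circles) and with tunicamycin (orange triangles); bars are group means of 3 arrays, 2 for IRE1-DN. The first 3 genes lie higher on tunicamycin in all lines and PGAM1 lower, and PFKFB3 is lowest in EV cells in both conditions.

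Of the genes that low oxygen induces outside glycolysis, NDRG1, a stress-induced gene of growth arrest and differentiation, rose in all 7 lines. It was 9.28, 9.03 and 9.52 in EV, 9.58, 9.90 and 9.50 in WT, 9.29, 9.28 and 9.22 for S769F cells, 8.98, 9.35 and 9.49 in Q780*, 9.25, 9.51 and 9.36 in P336L, 8.90, 8.88 and 8.95 in A414T and 9.35 and 9.39 in IRE1-DN cells under basal conditions. With tunicamycin it was 10.63, 10.61 and 10.75 in EV, 10.60, 11.17 and 11.00 in WT, 11.07, 10.94 and 10.99 for S769F cells, 11.26, 11.12 and 11.02 in Q780*, 10.74, 10.85 and 10.79 in P336L, 9.88, 10.43 and 10.09 in A414T and 11.33 and 11.05 in IRE1-DN cells. A414T cells were lowest in both conditions. The log2 difference ran from 1.22 (SE 0.14, adjusted p = 4.34e-08) in A414T to 1.87 (SE 0.14, adjusted p = 1.18e-11) in Q780* cells. KDM3A, a histone demethylase that needs oxygen, rose by 0.56 in S769F to 0.98 in A414T cells on the log2 scale. P4HA2, a catalytic subunit of the enzyme that hydroxylates collagen, rose by 0.36 in IRE1-DN to 1.09 (SE 0.08, adjusted p = 1.05e-11) in A414T cells, where its arrays were 10.30, 10.28 and 10.45 before and 11.23, 11.53 and 11.52 after tunicamycin. The IRE1-DN call of P4HA2 ended without replicate 3 of the basal or replicate 2 of the tunicamycin arrays, and that of KDM3A without the latter. The other probe set of P4HA2 was -0.16 in IRE1-DN, 0.07 in WT and 0.01 in P336L cells, and the mean of both probe sets ended the call in these 3 lines.

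The other members of this group were called in fewer lines, most often in A414T cells. ADM, the vasodilator peptide adrenomedullin, was 8.72, 9.39 and 8.68 in basal and 9.99, 10.19 and 9.82 in treated A414T cells, a log2 difference of 1.07 (SE 0.23, adjusted p = 0.000449). Replicate 2 had the highest ADM signal in all 7 lines, in both conditions, and in EV cells the basal arrays (9.39, 10.33 and 9.13) overlapped those with tunicamycin (10.27, 10.36 and 10.15), with a difference of 0.64 (SE 0.23, adjusted p = 0.0356) whose call ended in 7 of 14 alternatives. ANKRD37, a small ankyrin repeat gene known as a HIF target, was 7.60 and 7.19 in basal and 8.87 and 8.05 in treated IRE1-DN cells, 1.06 (SE 0.22, adjusted p = 0.000652), and rose by 0.79 in A414T cells. Without replicate 2 of the tunicamycin arrays the IRE1-DN call ended. P4HA1, the other collagen hydroxylase subunit, was called higher in A414T cells (0.75) and CA12, a membrane carbonic anhydrase, in EV (0.44) and A414T cells (0.63). PDK1, a kinase that inactivates pyruvate dehydrogenase, rose in S769F, Q780* and A414T cells, by 0.47, 0.71 and 0.47. The S769F and A414T calls of PDK1 each held in 9 of 14 alternatives. On the other PDK1 probe set the differences were 0.45, 0.37 and 0.25, without a call. PDK3, a kinase of the same family, was -0.56 (SE 0.16, adjusted p = 0.00788) in Q780* and 0.75 (SE 0.16, adjusted p = 0.000489) in A414T cells. The arrays did not overlap in either line. The mitophagy receptor BNIP3L rose in Q780*, A414T and IRE1-DN cells, by 0.30, 0.41 and 0.58, and its relative BNIP3 in IRE1-DN cells, by 0.52. EGLN1, the main oxygen-sensing hydroxylase, fell in WT, P336L and A414T cells, with log2 differences of -0.36, -0.40 and -0.42, and the WT call held in 7 of 14 alternatives.

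Single arrays weighed on the counts in WT and IRE1-DN cells. Leaving out replicate 3 of WT cells on tunicamycin gave 7 genes called in WT cells in place of 13. In IRE1-DN cells 8 genes in place of 12 were called without replicate 3 of the basal or replicate 2 of the tunicamycin arrays.

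Whether a line answered tunicamycin differently from EV cells was tested directly, as an interaction. No gene passed in WT, S769F, Q780*, P336L or A414T cells. Of all genes tested, 0.5%, 0.494%, 0.919%, 0.814% and 6.83% passed in these lines. At an unadjusted p under 0.05 from limma there were 1, 2, 6, 1 and 7 of the 34 genes, in the same order. The share of all genes at that unadjusted threshold was not counted. With no gene passing in A414T cells, the 12 rises there against 8 in EV cells were not shown to be a different response gene by gene. Closest in A414T cells were PDK3, 0.73 (SE 0.23, adjusted p = 0.0554), and BNIP3L, 0.42 (SE 0.14, adjusted p = 0.0634), and the alternatives called up to 3 genes there. In IRE1-DN cells 2 genes passed, the mitophagy receptors BNIP3 and BNIP3L, which is 5.9% of the 34 genes, where 5.2% of all genes passed. In IRE1-DN cells BNIP3 was 11.14 and 10.72 under basal conditions and 11.72 and 11.18 on tunicamycin. In EV cells it was 11.72, 11.51 and 11.76 under basal conditions and 11.57, 11.55 and 11.48 on tunicamycin. Under basal conditions the IRE1-DN arrays lay below all EV arrays, and on tunicamycin on both sides of them. BNIP3L had the same order, with 10.95 and 10.59 in basal and 11.53 and 11.18 in treated IRE1-DN cells, against 11.33, 11.24 and 11.32 in basal and 11.31, 11.26 and 11.30 in treated EV cells. The difference of responses was 0.65 (SE 0.17, adjusted p = 0.021) for BNIP3 and 0.59 (SE 0.15, adjusted p = 0.0181) for BNIP3L. Both calls ended without replicate 3 of the basal or replicate 2 of the tunicamycin IRE1-DN arrays.

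The next question was whether the IRE1 forms shifted these genes before any stress. All 6 comparisons shared the same 3 EV arrays, so that they are not independent of each other. Against EV cells 5 genes were higher and none lower in WT cells (14.7% and 0.0%, against 4.9% and 3.68% of all genes tested). S769F cells had 3 higher and 1 lower (8.8% and 2.9%, against 4.23% and 1.93%), Q780* cells 2 higher and 3 lower (5.9% and 8.8%, against 3.36% and 1.83%), and P336L cells 4 higher and 2 lower (11.8% and 5.9%, against 6.53% and 2.58%). In A414T cells 2 were higher and 12 lower (5.9% and 35.3%, against 10.4% and 8.19%), and in IRE1-DN cells 6 were higher and 10 lower (17.6% and 29.4%, against 15.2% and 12.4%). The median log2 difference of the 34 genes was 0.11 in WT, 0.03 in S769F, 0.03 in Q780*, 0.01 in P336L, -0.20 in A414T and -0.04 in IRE1-DN cells, whereas that of all genes was between -0.03 and 0.02. Of all 34 genes, 13 were called in none of the 6 lines, a count not made over all genes tested.

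**Figure D4:**
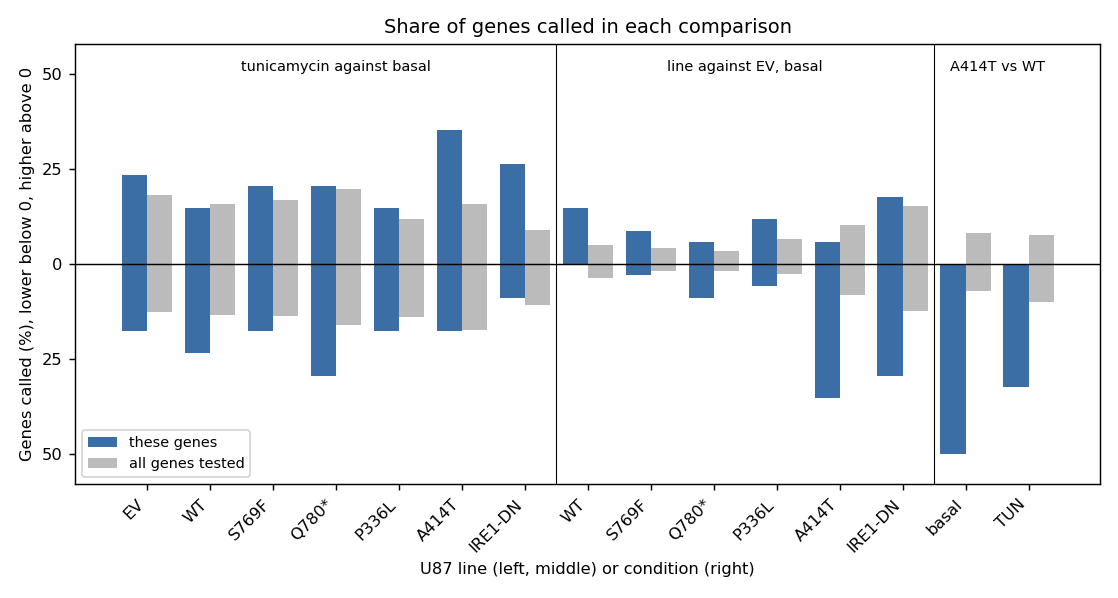
Share of the 34 genes (blue) and of all 17191 genes tested (grey) called higher (above 0) or lower (below 0) in 15 comparisons, in percent. The widest gap between blue and grey is in A414T against WT cells, where 50.0% of the genes were lower under basal conditions and none was higher.

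PFKFB3 and PFKP were higher in all 6 lines than in EV cells. The basal log2 signal of PFKFB3 was 8.67, 8.66 and 8.71 in EV cells, 9.57, 9.79 and 9.62 in WT, 9.58, 9.69 and 9.50 for S769F cells, 9.61, 9.70 and 9.49 in Q780*, 9.40, 9.49 and 9.48 in P336L, 9.32, 9.24 and 9.46 in A414T and 9.72 and 9.39 in IRE1-DN cells. All 3 EV arrays lay below every other basal array. The log2 difference ran from 0.66 (SE 0.14, adjusted p = 0.000774) in A414T to 0.98 (SE 0.14, adjusted p = 8.64e-06) in WT cells. PFKP was 10.12, 10.01 and 9.91 in EV and between 10.15 and 10.77 on the basal arrays of the other lines, with differences of 0.30 (SE 0.08, adjusted p = 0.00665) in A414T to 0.70 (SE 0.08, adjusted p = 4.28e-07) in S769F cells. All 6 differences rest on the same EV arrays, so that a shift of the other lines and one of the EV cells cannot be told apart. The A414T call of PFKP ended in 5 of 14 alternatives of the limma fit, and all other calls of both genes held in each of them.

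Other genes were called in fewer lines. P4HA2 was higher in WT, S769F, P336L and IRE1-DN cells, by 0.47, 0.43, 0.35 and 0.61, and lower in A414T cells, -0.32 (SE 0.08, adjusted p = 0.00556). A dimmer probe set of P4HA2 was 0.13 (SE 0.15, adjusted p = 0.713) in A414T cells. HK2 was higher in WT (0.58) and P336L cells (0.66), and ANKRD37 in WT cells (0.81). The WT call of HK2 held in 9 of 14 alternatives, and the P336L call ended with the mean of both probe sets. The other HK2 probe set was 0.30 in WT and 0.07 in P336L cells, without a call. BNIP3 was lower in all lines but WT, between -0.43 in P336L and -0.73 in IRE1-DN cells, and its difference in WT cells was -0.21 (SE 0.11, adjusted p = 0.302). BNIP3L was lower in Q780*, P336L, A414T and IRE1-DN cells, by log2 differences of -0.43, -0.38, -0.99 and -0.52. PDK1 was also lower in Q780* cells (-0.68), a call that held in 10 of 14 alternatives. Its other probe set was -0.33 there, without a call. On replicates 2 and 3 alone the BNIP3 calls in S769F, Q780* and P336L cells and the BNIP3L calls in Q780* and P336L cells ended.

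A414T cells had the most genes below EV cells. They were ALDOC (the aldolase of brain), PFKFB4, PGK1, ENO2, PDK1, both mitophagy receptors BNIP3 and BNIP3L, CA12, ADM, KDM3A and both collagen hydroxylase subunits, P4HA1 and P4HA2. The calls of PGK1 and CA12 held in 6 and 7 of 14 alternatives. PDK1 was 9.02, 8.72 and 8.72 in EV, 8.99, 8.83 and 8.42 in WT, 8.49, 8.25 and 8.19 for S769F cells, 8.19, 8.02 and 8.21 in Q780*, 8.46, 8.67 and 8.40 in P336L, 7.73, 7.54 and 7.53 in A414T and 8.59 and 7.97 in IRE1-DN cells. Every A414T array was below every basal array of the other lines. The difference from EV cells was -1.22 (SE 0.17, adjusted p = 1.18e-06), and -0.74 (SE 0.18, adjusted p = 0.0035) on its other probe set. BNIP3L was 10.32, 10.18 and 10.41 in A414T and 11.33, 11.24 and 11.32 in EV cells, a difference of -0.99 (SE 0.10, adjusted p = 2.45e-09). PFKFB4 was -0.82, P4HA1 -0.87, ENO2 -0.78, KDM3A -0.66 and ALDOC -0.66 on the log2 scale. The other PFKFB4 probe set was 0.04, without a call. ADM was 8.72, 9.39 and 8.68 in A414T and 9.39, 10.33 and 9.13 in EV cells, so that the groups overlapped, and its call ended without EV replicate 2, among others. With the fit limited to the arrays compared, 8 genes in place of 14 were called in A414T cells. These arrays hold RNA of whole cultures, in which fewer cells that express a gene and less RNA per cell cannot be told apart.

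IRE1-DN cells went both ways. ENO2, the neuronal enolase, was 6.51 and 6.43 on the 2 IRE1-DN arrays and 8.85, 8.15 and 8.39 on the EV arrays. The log2 difference was -1.99 (SE 0.24, adjusted p = 1.13e-07), a call that held in all 13 alternatives of the limma fit. The methods' t-test, which is not among the 13, called 1 gene in IRE1-DN cells. GPI, which isomerizes glucose 6-phosphate, was 8.15 and 8.03 against 9.05, 8.87 and 9.09, -0.92 (SE 0.15, adjusted p = 1.53e-05). HK1, PFKM, PFKFB4, PGK1, PDK1, BNIP3, BNIP3L and CA12 were also lower, from -0.18 for PGK1 to -0.73 for BNIP3. The call of PGK1 held in 5 of 13 alternatives. The other PFKFB4 probe set was -0.13, without a call. ADM was higher, 10.76 and 10.57 in IRE1-DN against 9.39, 10.33 and 9.13 in EV cells, a difference of 1.05 (SE 0.26, adjusted p = 0.00236), and so were PFKFB3, PFKP, P4HA2, PKM (0.67), the pyruvate kinase, and PDK3 (0.61). The call of ADM held in 11 of 13 alternatives, and ended with only the arrays compared and on replicates 2 and 3 alone. Without replicate 3 of the basal IRE1-DN arrays 9 genes in place of 16 were called. The ACTB 3' minus 5' signal differed between these groups as given above, and its part in these differences was not tested.

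A414T and WT cells, which differ in 1 amino acid of the added IRE1, were compared directly in both conditions. Under basal conditions none of the 34 genes was higher in A414T cells and 17 were lower (50.0%), where 8.32% of all genes tested were higher and 7.05% lower. On tunicamycin none was higher and 11 were lower (32.4%), against 7.77% and 9.91% of all genes. The median log2 difference of the 34 genes was -0.33 under basal conditions and -0.28 on tunicamycin, and that of all genes -0.02 and -0.01. On tunicamycin the fit of only the arrays compared, and that of only replicates 2 and 3, called 5 genes each.

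The genes lower in both conditions were 9: PFKM, PFKP, PFKFB4, PGK1, PDK1, BNIP3, BNIP3L, NDRG1 and P4HA1. How many of all genes tested were lower in both was not counted. PDK1 was 8.16, 8.17 and 7.86 in A414T and 9.20, 9.13 and 8.96 in WT cells on tunicamycin, and its differences were -1.15 (SE 0.17, adjusted p = 6.59e-06) under basal conditions and -1.03 (SE 0.17, adjusted p = 3.06e-05) on tunicamycin. PFKFB4 was 8.04, 7.84 and 7.86 against 8.72, 8.97 and 8.41 under basal conditions and 7.31, 6.96 and 6.87 against 8.35, 8.07 and 7.84 on tunicamycin, differences of -0.78 and -1.04 (SE 0.17, adjusted p = 4.15e-05). In both genes all A414T arrays were below all WT arrays of the same condition. The other PFKFB4 probe set was -0.48 under basal conditions and -0.21 on tunicamycin, without a call. P4HA1 was 8.44, 7.84 and 8.49 against 9.19, 9.44 and 9.55, -1.14 (SE 0.20, adjusted p = 0.000133), and -0.79 on tunicamycin. BNIP3L was -0.76 and -0.45, NDRG1 -0.75 and -0.79, and PGK1, an enzyme that yields ATP, -0.18 and -0.20. The basal call of PGK1 held in 4 of 14 alternatives.

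Lower under basal conditions alone were HK2, ALDOC, ENO2, PDK3, CA12, ADM, ANKRD37 and P4HA2. The calls of HK2 and PDK3 ended in 5 and 4 of 14 alternatives, and HK2 was 0.29 on its other probe set, without a call, and -0.13 on the mean of both. ADM was 8.72, 9.39 and 8.68 in A414T and 9.88, 10.52 and 9.95 in WT cells, -1.19 (SE 0.23, adjusted p = 0.000391). ANKRD37 was 6.76, 6.72 and 6.86 against 8.07, 8.09 and 7.64, -1.15 (SE 0.18, adjusted p = 2.48e-05). ENO2 was 7.59, 7.90 and 7.56 against 8.78, 8.91 and 8.46, -1.03 (SE 0.22, adjusted p = 0.000911). In these last 3 genes the groups did not overlap. The calls for these and for PDK1 and P4HA1 held in all 14 alternatives of the limma fit. The methods' t-test, which is not among the 14, called 7 genes under basal conditions. On tunicamycin the differences of ADM, ANKRD37 and ENO2 were -0.35, -0.31 and -0.57, none of them called. Whether the difference changed with tunicamycin was not tested. SLC2A1 (-0.66) and SLC2A3 (-0.71) were called lower in A414T cells on tunicamycin alone, SLC2A1 with overlapping arrays. The SLC2A1 call ended in 6 of 14 alternatives, and without replicate 1 of the A414T arrays the difference was -0.32. Of the ER stress check list, 7 of 13 genes were also lower in A414T than in WT cells under basal conditions and 1 on tunicamycin, with none higher, and their part in these differences was not tested.

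**Figure D5:**
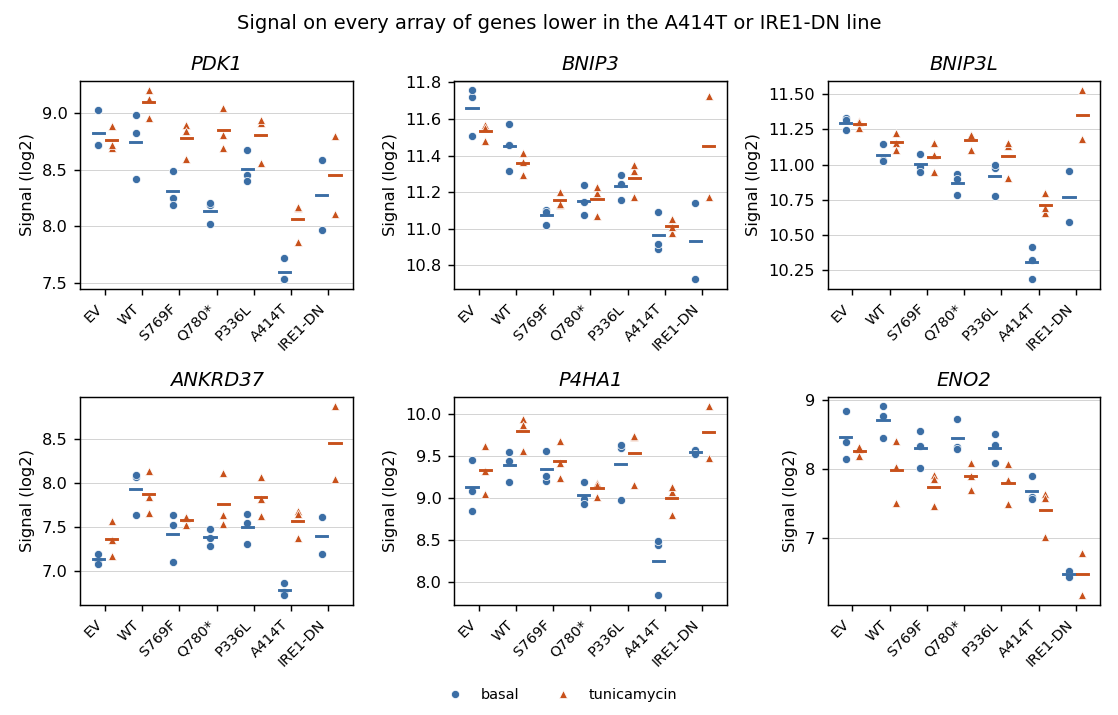
Log2 signal of PDK1, BNIP3, BNIP3L, ANKRD37, P4HA1 and ENO2 on every array of the 7 lines, basal (blue circles) and with tunicamycin (orange triangles); bars are group means of 3 arrays, 2 for IRE1-DN. A414T cells lie lowest under basal conditions for PDK1, BNIP3L, ANKRD37 and P4HA1, and IRE1-DN cells lie lowest for ENO2 in both conditions.

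Across all 14 groups, basal A414T cells had the lowest mean of 10 genes: SLC2A1, ALDOC, PDK1, BNIP3L, ADM, NDRG1, ANKRD37, KDM3A, P4HA1 and P4HA2. IRE1-DN cells on tunicamycin had the highest mean of 8, SLC2A3, BNIP3L, ADM, NDRG1, ANKRD37, EGLN3, EGLN1 and KDM3A, and the lowest of 9, of which HK1, PFKM, TPI1, GAPDH, PGK1, ENO1, ENO2 and LDHB are enzymes of glycolysis and the last was CA12. EGLN3, the hydroxylase that HIF itself induces, stayed dim at 4.01 to 4.94 on all arrays. The range of the 14 group means was 2.28 for NDRG1, 2.25 for ENO2, 2.18 for SLC2A1 and 2.12 for ADM, and 0.21 for GAPDH. These orders carry no test and were not counted over all genes tested. The IRE1-DN means rest on 2 arrays, those of the other lines on 3.

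The sequence before the start site of several of these genes is shown because they moved together in A414T cells or rose in every line. HIF is known to bind a short motif whose core is ACGTG or GCGTG. In the RefSeq promoter table of GRCh38.p14, 33 of the 36 listed genes were matched, with 60 start sites. SLC2A3, NDRG1 and BNIP3L were not among them. Within the 250 bases before the start, ACGTG was found on either strand in 38.3% of these 60 promoters and in 18.5% of all 35116, GCGTG in 33.3% and 32.2%, and either in 60% and 43.2%. CACGTG, which contains ACGTG, was found in 13.3% and 6.34%, and TGACGTG, which also contains it, in 5.0% and 1.68%. Counted by gene, 60.6% of the 33 and 21.7% of 27305 genes had ACGTG before at least 1 start. Some of the 33 have several starts close together, and a gene with more starts has more chances of a match. The list was drawn up for glycolysis and low oxygen, so that these shares describe the list and are no result of the arrays. The bases are written 5′ to 3′ on the strand of the gene, with the cores ACGTG and GCGTG, read on either strand, in capitals.
HK2, chr2:74834920-74835169, plus strand: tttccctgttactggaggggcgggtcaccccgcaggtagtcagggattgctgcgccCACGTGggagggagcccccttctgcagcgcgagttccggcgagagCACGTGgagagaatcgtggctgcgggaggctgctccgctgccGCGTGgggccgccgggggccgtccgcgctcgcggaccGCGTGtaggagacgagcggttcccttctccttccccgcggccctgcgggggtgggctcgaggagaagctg
PDK1, chr2:172555840-172556089, plus strand: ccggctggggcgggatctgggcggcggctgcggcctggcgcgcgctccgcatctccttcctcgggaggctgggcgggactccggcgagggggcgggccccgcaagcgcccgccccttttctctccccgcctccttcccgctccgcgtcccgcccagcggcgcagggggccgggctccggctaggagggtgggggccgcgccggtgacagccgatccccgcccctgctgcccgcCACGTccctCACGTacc
ANKRD37, chr4:185396591-185396840, plus strand: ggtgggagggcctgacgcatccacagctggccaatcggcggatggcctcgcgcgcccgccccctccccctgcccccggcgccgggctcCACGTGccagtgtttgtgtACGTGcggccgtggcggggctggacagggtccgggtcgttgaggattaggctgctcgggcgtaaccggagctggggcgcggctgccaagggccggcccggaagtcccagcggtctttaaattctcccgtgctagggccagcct
P4HA1, chr10:73096867-73097116, minus strand: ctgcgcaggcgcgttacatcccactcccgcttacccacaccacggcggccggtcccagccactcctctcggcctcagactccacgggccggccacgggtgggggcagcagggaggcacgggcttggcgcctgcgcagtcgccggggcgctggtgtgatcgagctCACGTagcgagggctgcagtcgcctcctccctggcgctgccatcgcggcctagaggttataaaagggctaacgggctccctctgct
BNIP3, chr10:131981924-131982173, minus strand: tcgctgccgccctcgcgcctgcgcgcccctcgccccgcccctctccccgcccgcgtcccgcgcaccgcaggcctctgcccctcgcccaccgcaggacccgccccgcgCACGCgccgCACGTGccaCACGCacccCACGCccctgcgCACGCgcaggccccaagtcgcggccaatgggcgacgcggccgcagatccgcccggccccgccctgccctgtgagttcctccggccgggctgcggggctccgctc
SLC2A1, chr1:42958869-42959118, minus strand: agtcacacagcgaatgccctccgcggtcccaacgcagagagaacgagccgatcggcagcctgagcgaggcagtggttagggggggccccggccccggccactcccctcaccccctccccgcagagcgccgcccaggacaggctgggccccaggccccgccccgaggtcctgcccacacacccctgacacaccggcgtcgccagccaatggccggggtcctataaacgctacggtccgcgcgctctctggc

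The windows of HK2 and BNIP3 each held 6 matches, overlapping ones included, that of ANKRD37 3, that of PDK1 2 and that of P4HA1 1. The 250 bases of SLC2A1, which rose in all 7 lines, held none, nor did those of P4HA2, which is not shown. PDK1 and HK2 each have another start, with 0 and 3 matches, and the start with more matches is shown. A match describes these letters only, and the arrays give no measure of binding.

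The wider pathway was read from lists of other genes, also chosen with earlier results of these data known. Of 22 tested genes of glycolysis and gluconeogenesis beside the 34, tunicamycin raised 4 and lowered 4 in EV cells, where 18.2% of all genes tested rose and 12.7% fell. They included PCK2 (3.11), the mitochondrial enzyme that makes phosphoenolpyruvate and a known target of ATF4, PFKFB2 (1.17), a relative of PFKFB3, and HKDC1 (1.15), a further hexokinase. Of 7 tested genes of the pentose phosphate pathway, 4 rose and 1 fell in EV cells, with PGD (1.51) and PGLS (1.03), which lead to NADPH, the largest. Of 25 tested genes of pyruvate oxidation and the TCA cycle, 2 rose and 6 fell against the same 18.2% and 12.7% of all genes, among them PDP1 (0.83), the phosphatase that reverses PDK1, and MPC2 (-0.70), a subunit of the mitochondrial pyruvate carrier.

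Of 32 other genes that low oxygen is known to induce, 10 rose and 4 fell with tunicamycin in EV cells (all genes, 18.2% and 12.7%). The largest were DDIT4 (3.32), an inhibitor of mTORC1, STC2 (2.39), a secreted glycoprotein, TGFA (-2.29), a ligand of the EGF receptor, and MXI1 (1.98), a MYC antagonist. In A414T cells 4 of the 32 were higher and 12 lower than in EV cells under basal conditions (all genes, 10.4% and 8.19%). Against WT cells 2 were higher and 17 lower under basal conditions (all genes, 8.32% and 7.05%), and 3 higher and 14 lower on tunicamycin (all genes, 7.77% and 9.91%). The median log2 difference from WT cells was -0.34 under basal conditions and -0.36 on tunicamycin. Lowest under basal conditions were IGFBP3 (-1.80), which binds insulin-like growth factors, DDIT4 (-1.76), TGFA (-1.16) and STC2 (-1.14). DDIT4 and STC2 also respond to ER stress. Against EV cells, 6 of the 32 were higher and 5 lower in IRE1-DN cells (all genes, 15.2% and 12.4%), among them VEGFA (-2.27), the vessel growth factor, and EDN1 (4.62), endothelin.

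Also read were 15 genes of oxygen sensing and the HIF subunits. In A414T against WT cells EGLN2 (0.32), a hydroxylase of the EGLN family, was the 1 gene called under basal conditions. Of all genes tested, 8.32% were higher and 7.05% lower there. On tunicamycin EPAS1 (-0.37), which encodes HIF-2 alpha, and CUL2 (-0.27), of the ligase that marks HIF for decay, were lower and HIF1A (0.36) higher. In that comparison 7.77% of all genes were higher and 9.91% lower. Against EV cells, EPAS1 was higher in WT (0.48) and A414T cells (0.38) and lower in IRE1-DN cells (-1.10). HIF is set mainly by protein decay, which these arrays do not measure.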

How the data were processed

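Total RNA of the 40 samples was hybridised to Affymetrix arrays, and the authors deposited log2 signals of 54715 probe sets after RMA of a version that no source used here gives. RMA forces the arrays to 1 distribution, so that a shift of all genes would not be seen. No value was rescaled. Probe sets with 1 gene symbol (40920) were used, those with several (864) or none (12931) were not. A gene was read by its probe set of highest mean, and kept when at or above the 40th percentile on at least 2 arrays. A limma model (version 3.58.1, R 4.3.3) with a mean for each group was fitted to the 40 arrays together (eBayes, 26 residual and 3.436 prior degrees of freedom), and p-values were adjusted over all genes tested by Benjamini-Hochberg. Values of single probe sets other than the brightest came from the same model fitted to all probe sets with 1 symbol that passed the filter, adjusted over them. The 21 comparisons comprised 7 tunicamycin responses, 6 lines against EV, 6 differences of responses and 2 of A414T against WT. Plots used matplotlib 3.10.9 under Python 3.11.15. The fits were tested on simulated data. For A414T against WT cells under basal conditions, 34% of genes given a log2 change of 0.5 were called. Of those given a change of 1, 82% were called, so that a gene not called may still differ. Depth does not apply to arrays, whose number limits the precision.

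The members and all gene lists were chosen with earlier results of these data known. Values of single arrays were given for members called in any comparison with a log2 difference of at least 1 in size, and also, chosen after their values were seen, for BNIP3, BNIP3L and GPI. From each other list at most 4 genes a comparison were named, those called with the largest difference. The alternatives tried were a stricter filter (60th percentile) or none, the mean of all probe sets, only the arrays compared, a replicate block, median centring, quantile normalization, the methods' t-test and each array left out. Replicates 2 and 3 alone were added after the data were seen. The number of alternatives given for a single call includes this fit and leaves out the methods' t-test. Same-numbered arrays deviated together, with every r over 0.1, in 4 of 15 comparisons (r from -0.39 to 0.63 in all), namely WT, S769F and Q780* against EV cells and A414T against WT cells on tunicamycin. No source used here says what the number marks.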

Additional observations from a re-analysis of the deposited data

Results flagged for a closer look

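The response to tunicamycin differed between IRE1-DN and EV cells for the 2 mitophagy receptors, by the interaction term of limma. The difference of log2 responses was 0.65 for BNIP3 and 0.59 for BNIP3L, with higher signals on tunicamycin in IRE1-DN cells and little change in EV cells. These 2 genes are 5.9% of the 34, where 5.2% of all genes tested passed, so that the count is near the share of all genes. Both calls ended without replicate 3 of the basal or replicate 2 of the tunicamycin IRE1-DN arrays. Both rest on 2 arrays in each IRE1-DN group, and replicate 2 was above replicate 3 in both conditions for both genes.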

How the results depend on the processing

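Of the 178 calls, 176 kept direction and threshold with no filter, 178 with the stricter filter, 178 with a replicate block, 168 with median centring, 174 with quantile normalization, 148 with the mean of probe sets, 104 with only the arrays compared and 137 with replicates 2 and 3 alone, the last chosen after seeing the data. The methods' t-test, not run for the interaction, kept 69 of 176, and leaving out 1 array kept 889 of 1036. With the mean of all probe sets, TPI1 on tunicamycin reversed to 0.16 in EV and WT, 0.17 in IRE1-DN, 0.13 in S769F and 0.0883 in Q780* cells, and HK2 to -0.0719 in A414T cells.

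For counts of genes called, only the arrays compared gave 6 in WT, 7 in P336L and 3 in IRE1-DN cells on tunicamycin, 8 in A414T, 7 in IRE1-DN, 3 in WT, 3 in P336L and 2 in each of S769F and Q780* cells against EV, 0 for the IRE1-DN difference of responses and 5 for A414T against WT on tunicamycin. The methods' t-test with adjustment gave 8 in EV, 5 in WT, 6 in P336L, 9 in A414T and 0 in IRE1-DN cells on tunicamycin, 6 in A414T, 1 in WT, 1 in P336L, 1 in IRE1-DN and 0 in each of S769F and Q780* cells against EV, and 7 and 5 for A414T against WT, basal and on tunicamycin. Replicates 2 and 3 alone gave 2 in Q780*, 3 in P336L and 9 in A414T cells against EV, 1, 1 and 0 for the differences of responses in P336L, A414T and IRE1-DN cells, and 5 for A414T against WT on tunicamycin. The A414T difference of responses had 2 genes with the stricter filter, 2 with the mean of probe sets and 2 with quantile normalization.

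With the replicate block the difference of responses had 1 gene in WT, 1 in Q780*, 1 in P336L, 3 in A414T and 5 in IRE1-DN cells. In the 4 comparisons whose numbers paired the arrays, the block gave 5 genes in Q780* and 6 in each of WT and S769F cells against EV and 14 for A414T against WT on tunicamycin, and it ended no call.

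Leaving out 1 array at a time gave, on tunicamycin, 12 to 14 genes in EV, 7 to 13 in WT, 10 to 13 in S769F, 12 to 16 in Q780*, 10 to 12 in P336L, 15 to 18 in A414T and 8 to 11 in IRE1-DN cells. Against EV it gave 4 to 6 in WT, 4 to 7 in S769F (7 without EV replicate 2), 4 to 6 in Q780*, 5 to 8 in P336L, 11 to 12 in A414T and 9 to 15 in IRE1-DN cells. The differences of responses had 0 genes throughout in Q780*, WT and S769F, 0 to 1 in P336L and A414T, and 0 to 4 in IRE1-DN cells (0 without basal replicate 3 or tunicamycin replicate 2, 4 without tunicamycin replicate 3). A414T against WT had 14 to 15 under basal conditions and 8 to 12 on tunicamycin. The cause of these moves was not tested. PFKL and EGLN3, with mean log2 signals of 5.80 and 4.54, were dim, which limits what could be seen of them.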
